A study of Mus musculus with 16 samples.

Results

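Panobinostat added to trastuzumab was examined in 8 of the 16 tumours of the series, 4 from mice given both drugs and 4 from mice given trastuzumab alone, chosen by treatment. Every gene with a numeric count in all 16 libraries entered the analysis, which left 23354 of 24681 gene symbols, and 15610 of these were expressed highly enough to test. AU565(pv), a line of human breast cancer cells with amplified HER2, was grown in a mammary fat pad of SCID mice, and treatment began once tumours measured 20 to 25 mm2. RNA of the whole tumour was sequenced, and the deposited counts are for mouse genes. They were read here as counts for the host tissue in and around a human tumour, which assumes that few human reads are among them.

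The trastuzumab group received 10 mg/kg of the antibody and the solvent of panobinostat, dextrose in water (D5W). The combination group received the same antibody dose with panobinostat at 15 mg/kg on days 0 and 1. The vehicle group received D5W and phosphate-buffered saline, and the group given panobinostat alone received the same 15 mg/kg doses with saline. All injections were intraperitoneal and all tumours were taken on day 2. The treatment protocol and the description of each treated sample place trastuzumab on day 0. The design text places it on day 1, so how long it had acted at harvest is uncertain. Each of the 16 libraries came from a mouse of its own, 4 per group. All hosts carried the SCID defect, which removes mature T and B lymphocytes but leaves natural killer (NK) cells and phagocytes. The tumour cells were of 1 human line in every group.

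Panobinostat inhibits histone deacetylases, the enzymes that remove acetyl groups from histones. Trastuzumab binds HER2 on the tumour cell, and its constant region can engage Fc receptors on macrophages and NK cells. Interferons act through JAK kinases and STAT transcription factors. Type I interferon acts on genes with an interferon-stimulated response element (ISRE), and interferon gamma on genes with a gamma-activated site (GAS).

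Total counts ran from 4848244 to 7345222 in the trastuzumab libraries and from 5072404 to 8140782 in the combination libraries. Marker levels showed host tissue of mixed content: the summed level of 21 fat cell genes ranged from 5305 to 28531 CPM, counts scaled to a common library size in trastuzumab libraries and from 6754 to 19455 in combination libraries. The T cell genes Cd3d and Cd3g were under the filter on low counts. Cd4 and Ighm passed it, at means of 16.8 and 124 CPM in the trastuzumab libraries. Mouse Erbb2, the mouse counterpart of HER2, stood at 178 ± 20.2 CPM with trastuzumab and 158 ± 59.3 with both drugs (SD, n = 4 each). Whether human reads add to such counts was not tested, because no source used here says how human and mouse reads were kept apart.

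Adding panobinostat raised a block of interferon-induced genes, along with Vgf and Ch25h. It also raised 3 chemokines that draw lymphocytes by the receptor CXCR3 or CCR4, 2 of them within that block. It lowered 4 globin genes and 4 of 13 neutrophil markers, S100a8 and S100a9 among them. At an adjusted p under 0.05, 98 of 15610 genes were called, which is 0.628%. Of these, 73 were higher with both drugs (0.468%) and 25 were lower (0.160%). The median log2 change of all genes was -0.00, and 1445 of 15610 had an unadjusted p under 0.05. Of the 73 higher genes, 24 belonged to 1 of 2 interferon lists. Only the calls of Vgf and Ch25h held when any 1 of the 16 libraries was left out. For 96 of the 98, the 4 libraries of one group all lay above the 4 of the other. Over all genes, 2.68% were higher and 2.40% lower in that sense, and 49.6% had a positive change. Fewer cells of a type and less RNA per cell cannot be told apart in whole tumours.

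Vgf, which encodes a secreted neuropeptide precursor, showed the largest change of the called genes and the smallest adjusted p of all. Its levels were 2.61, 1.11, 3.13 and 3.31 CPM in trastuzumab mice 12, 15, 20 and 24, and 35.8, 16.2, 31.4 and 15.6 CPM in combination mice 2, 11, 16 and 22. Every combination tumour stood well above every trastuzumab tumour, with mice 2 and 16 the highest. The log2 change was 3.28 (SE 0.36, edgeR adjusted p = 0.000973). The mm10 build places Vgf on chromosome 5, plus strand, from 137026392 to 137033351, where it shares no exon with another annotated gene.

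Ch25h, the enzyme that makes 25-hydroxycholesterol and an interferon-responsive antiviral gene, was the other call that held when any 1 of the 16 libraries was left out. Its levels were 12.6, 11.2, 16.3 and 10.6 CPM with trastuzumab, and 34.6, 46.5, 40.6 and 74.9 CPM with both drugs in the order given for Vgf. The groups did not overlap, and mouse 22 was the highest. The log2 change was 1.96 (SE 0.25, adjusted p = 0.00344). The gene lies on chromosome 19 at 34473778 to 34475164, minus strand, and shares exon sequence with Gm26902 on the other strand. The library kit does not mark strand, so reads of the pair could not be told apart.

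**Figure D1:**
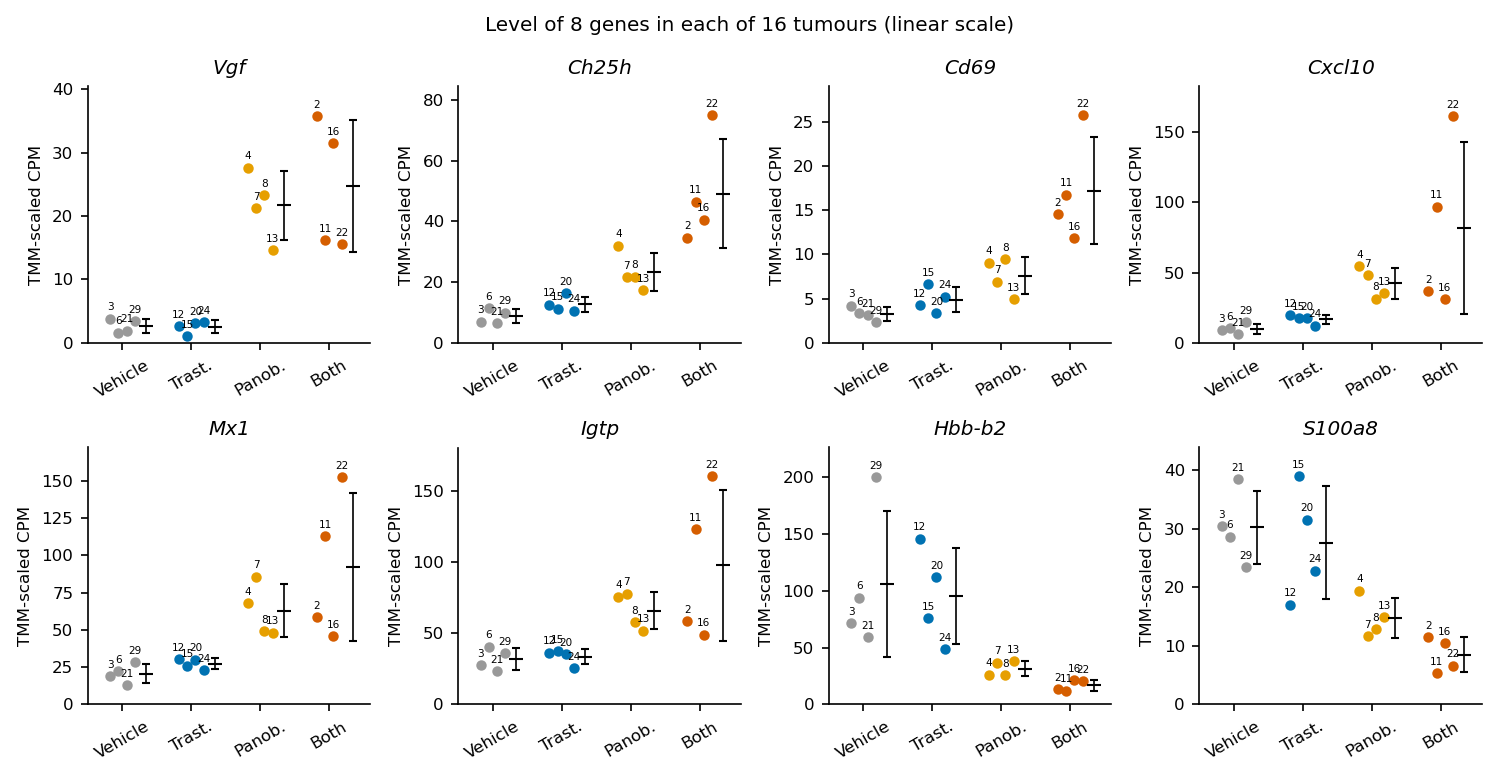
Levels of 8 genes in each of the 16 tumours, as CPM scaled by the trimmed mean of M-values (TMM) on linear axes that start at 0. Points are tumours labelled by mouse number, and bars beside them give the mean and SD of 4. In the Cxcl10, Mx1 and Igtp panels, combination mice 11 and 22 stand above mice 2 and 16, whereas in the Vgf panel mice 2 and 16 are the higher pair.

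Genes induced by interferon gamma formed the group with the largest median increase. Of 28 tested, 13 rose, none fell and 27 had a positive change, beside 49.6% of all genes. Their median log2 change was 1.27, beside -0.00 for all genes. The 4 combination tumours all lay above the 4 trastuzumab tumours for 14 of them, beside 2.68% of all genes. The calls were 5 guanylate-binding proteins, 6 immunity-related GTPases (proteins that attack the vacuoles of intracellular pathogens) and 2 chemokines. Iigp1, one of these GTPases, stood at 84.7, 70.9, 57.4 and 53.5 CPM with trastuzumab. With both drugs it stood at 126, 286, 107 and 402 CPM. All 4 combination tumours exceeded all 4 trastuzumab tumours, and mice 11 and 22 were far above mice 2 and 16. The log2 change was 1.79 (SE 0.35, adjusted p = 0.0344).

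The other GTPases followed the same order of mice. Tgtp2 rose by 1.99, from 25.8 ± 7.37 to 103 ± 63.8 CPM (adjusted p = 0.0341), and Tgtp1 from 23.7 ± 5.24 to 84.9 ± 54.8 CPM (1.84, adjusted p = 0.0427). These are close copies of each other, and how reads shared between copies were counted is not given, so their separate values are uncertain. Igtp (1.55), Irgm1 (1.26) and Irgm2 (1.28) also rose, and Igtp and Irgm2 share exon sequence on the same strand in the annotation. Among the guanylate-binding proteins, Gbp2 (1.36), Gbp3 (1.14), Gbp4 (1.67), Gbp5 (1.47) and Gbp9 (1.19) rose, again a family of near copies. Gbp4 and Gbp9 share exon sequence on the same strand, and for Gbp5 the groups overlapped (adjusted p = 0.0498). Gbp6 (1.82, adjusted p = 0.0853), Gbp10 (1.92, adjusted p = 0.0603) and Gbp7 (0.87, adjusted p = 0.143) had positive changes that missed the threshold. The 1 member with a negative value was Ido1, a tryptophan-degrading enzyme, at -1.07 (adjusted p = 0.858). Gbp2b, outside the lists, rose by 1.91 (adjusted p = 0.0341).

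Type I interferon response genes moved in the same direction. All 34 tested had a positive change, with a median of 1.04, and 11 rose, Mx1, Mx2, Ifit1, Ifit2, Rsad2, Parp14, Stat2, Dhx58, Ifih1 and Eif2ak2 among them. For Ifit2 the groups overlapped (adjusted p = 0.0485). In this list 17 genes were higher in all 4 combination tumours, beside 2.68% of all genes. Mx1, a GTPase that blocks influenza-type viruses, stood at 30.4, 26.0, 30.1 and 23.2 CPM with trastuzumab. With both drugs it stood at 58.6, 113, 45.7 and 153 CPM. The groups were separate, with mice 11 and 22 again the highest. The log2 change was 1.76 (SE 0.32, adjusted p = 0.0289).

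Stat2, a signal carrier of the type I pathway, rose from 70.4 ± 7.22 to 152 ± 57.2 CPM (1.11, adjusted p = 0.0344). Its partner Irf9 stood at 0.45 (adjusted p = 0.273). Irf7, the factor that amplifies type I interferon production, stood at 401, 224, 196 and 154 CPM with trastuzumab and 177, 489, 204 and 723 CPM with both drugs. Mice 11 and 22 stood above all trastuzumab tumours and mice 2 and 16 within their range, and the change of 0.71 did not pass (adjusted p = 0.629).

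Only 9 of the 15 listed ligands and receptors of the pathway were tested, so the list was covered in part. No edgeR call was made among the 9. Their changes ran from -0.12 to 0.52, 4 of them positive, with a median of -0.04 and 1 at an unadjusted p under 0.05. The receptor chains Ifnar1 (0.04), Ifnar2 (-0.12), Ifngr1 (-0.05) and Ifngr2 (-0.06) and the kinases Jak1 (-0.04), Jak2 (0.17) and Tyk2 (0.22) all had changes within ±0.25 on the log2 scale. Ifng, the transcript of interferon gamma itself, was under the filter on low counts. Among 17 sensors of foreign or misplaced nucleic acid, 17 were positive with a median of 0.56, and 3 rose. These were Ifih1 (MDA5) at 0.94, Dhx58 (LGP2) at 1.01, both cytosolic RNA sensors that also stand in the type I list, and Adar, the editor of double-stranded RNA, at 0.56 (adjusted p = 0.0341). Ddx58 (RIG-I) missed the threshold at 0.79 (adjusted p = 0.0719).

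**Figure D2:**
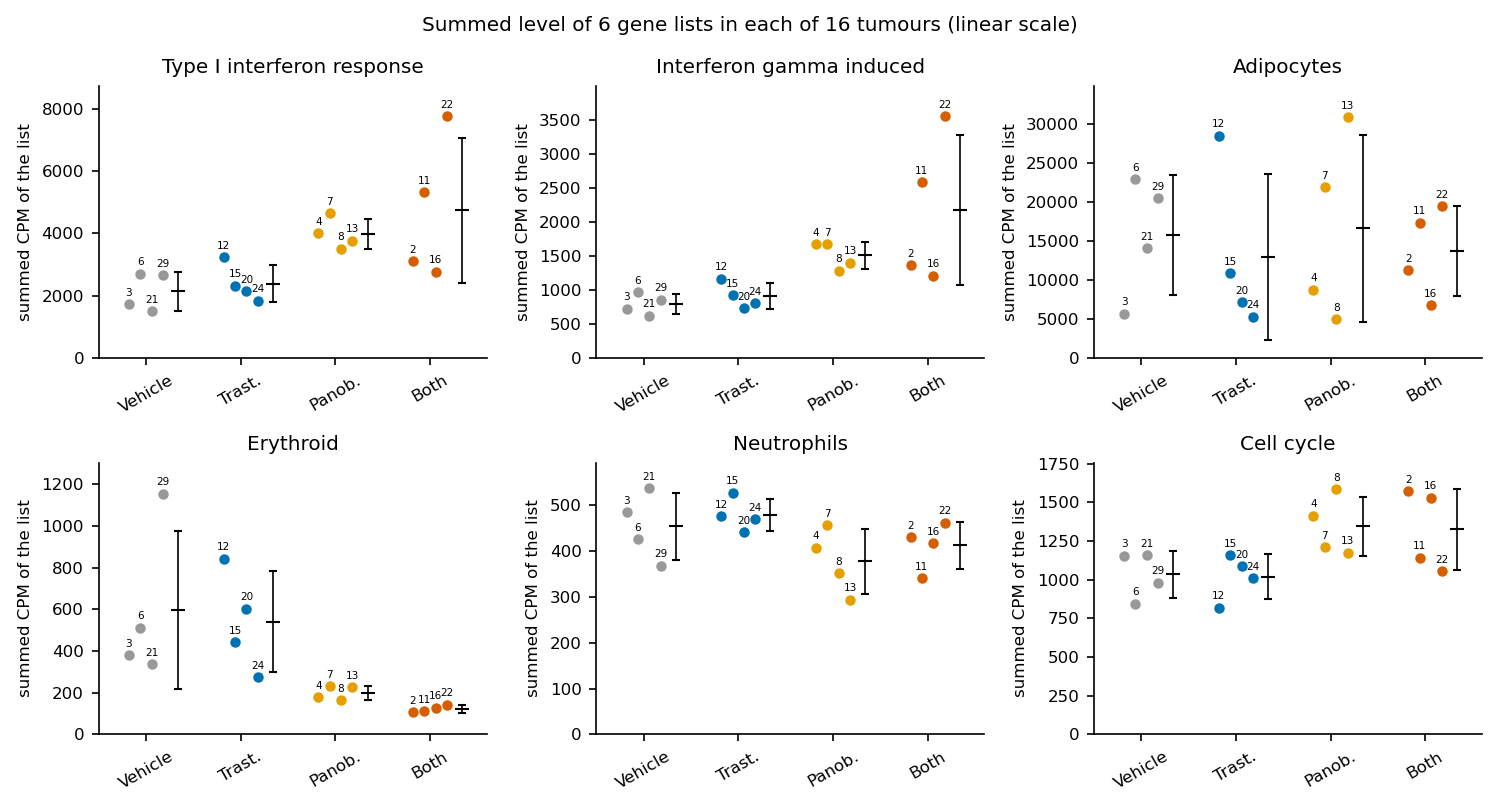
Summed level of 6 gene lists in each tumour, in CPM on linear axes that start at 0, with the mean and SD of 4 beside the points. In the type I list, combination mice 2 and 16 (3095 and 2764 CPM) lie below trastuzumab mouse 12 (3243 CPM), while mice 11 and 22 reach 5316 and 7765 CPM.

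The size of the interferon block was unequal among the combination tumours. The summed level of the interferon gamma list was 1359, 2584, 1210 and 3554 CPM in combination mice 2, 11, 16 and 22, and 1163, 923, 732 and 803 CPM in trastuzumab mice 12, 15, 20 and 24. No combination tumour was below a trastuzumab tumour in this sum, although mice 2 and 16 were close to mouse 12. Mice 11 and 22 also carried the higher fat cell sums of their group, 17364 and 19455 CPM against 11278 and 6754 CPM. Mouse 12 had the highest fat cell sum of the trastuzumab group, 28531 CPM against 5305 to 10884. With the fat cell score as a covariate, 18 type I and 19 interferon gamma genes were called, and the medians were 0.93 and 1.16. With a skeletal muscle score as the covariate, 1 type I and 2 interferon gamma genes were called (medians 1.05 and 1.30). With the mammary epithelial score none of either list was called (medians 1.01 and 1.25).

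Without mice 11 and 22 together, a setting chosen after their values were seen, no member of either interferon list was called and 6 genes were called in all. The medians were then 0.37 for the type I list and 0.60 for the interferon gamma list. Vgf (3.74, adjusted p = 9.5e-05), Fxyd7 (2.59, adjusted p = 0.00396) and Ch25h (1.575, adjusted p = 0.0236) were among the 6. Leaving out only mouse 11 or only mouse 22 also left no interferon list member called. The same was true without trastuzumab mouse 15, 20 or 24, with limma voom, and in a fit of the 2 groups alone. DESeq2 called 23 type I and 21 interferon gamma genes. In those single omissions all 98 changes kept their sign, and the list medians stayed between 0.67 and 1.22 (type I) and between 0.99 and 1.57 (interferon gamma).

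The promoters of the genes that rose together are shown because many hold the letters of interferon response motifs. Windows of 300 bases, from 250 before to 50 after an annotated start, were taken from RefSeq (GRCm38.p6, the mm10 assembly) and matched 48 of the 73 higher genes, 18 of the 25 lower genes and 10926 of all tested genes. Some genes had more than 1 window, 9 of the 48 among them, and were counted once if any window held the motif. The ISRE core, GAAA followed by any 2 bases and GAAA and sought on both strands like the other motifs, was found in 21 of the 48 (43.8%), in none of the 18 and in 3.89% of all. GAS, as TTCNNNGAA, was found in 14 of the 48 (29.2%), in none of the 18 and in 8.26% of all. CRE, the cyclic AMP element TGACGTCA, was found in 2 of the 48, Ch25h and Tmem59l, and in 3.47% of all. In the type I list the ISRE core was found in 13 of 24 genes with a window and GAS in 6. In the interferon gamma list the ISRE core was found in 11 of 16 and GAS in 9. The ISRE core was thus common in both lists and does not tell them apart. Near copies, such as the guanylate-binding proteins and immunity-related GTPases, are among the genes with a match, so the matches are not all separate occurrences. All are matches of letters and do not show that a factor was bound.

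In 4 GTPase genes that rose, a GAS stood 2 bases before an ISRE core, an arrangement found in 5 of 32851 RefSeq windows (0.0152%). They are paralogs on chromosome 11, so they do not count as separate occurrences. Each stretch of 51 bases is written 5′ to 3′ on the strand of the gene, with GAS and then the ISRE core in capitals.
Tgtp1, chr11:48992299-48992349, minus strand: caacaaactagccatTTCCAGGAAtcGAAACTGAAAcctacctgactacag
Tgtp2, chr11:49064258-49064308, minus strand: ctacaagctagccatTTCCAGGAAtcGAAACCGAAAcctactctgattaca
Igtp, chr11:58199496-58199546, plus strand: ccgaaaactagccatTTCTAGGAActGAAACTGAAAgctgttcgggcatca
Irgm2, chr11:58214887-58214937, plus strand: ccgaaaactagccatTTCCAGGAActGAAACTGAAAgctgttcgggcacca
The pair begins 88 bases before the start of Tgtp1, 81 before Tgtp2, 45 before Igtp and 75 before Irgm2.

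Matches also stood in genes of other families, and 1 match is shown here for each of 4 calls discussed, in capitals. TTTC, 2 bases and TTTC is the ISRE core read on the other strand. In Ch25h the capitals mark the CRE.
Cxcl10, chr5:92349078-92349117, minus strand: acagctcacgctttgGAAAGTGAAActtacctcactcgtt
Ifit1, chr19:34640789-34640828, plus strand: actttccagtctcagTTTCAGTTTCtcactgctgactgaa
Gbp2, chr3:142620589-142620628, plus strand: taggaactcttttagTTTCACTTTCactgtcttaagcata
Ch25h, chr19:34475187-34475224, minus strand: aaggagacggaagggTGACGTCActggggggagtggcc
The matches begin 213 bases before the start of Cxcl10, 85 before Ifit1, 59 before Gbp2 and 61 before Ch25h. Ifit1 holds another ISRE core, not shown, that begins 104 bases before its start.

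Chemokines, the secreted proteins that steer leukocytes, rose in 4 of 25 tested genes and none fell. The list median was 0.46, with 22 positive. Cxcl10, a ligand of CXCR3 on NK and T cells, stood at 19.5, 17.4, 17.7 and 12.4 CPM with trastuzumab. With both drugs it stood at 36.6, 96.9, 31.2 and 161 CPM. The lowest combination tumour was above the highest trastuzumab tumour, and the log2 change was 2.29 (SE 0.42, adjusted p = 0.0289). Cxcl10 lies on chromosome 5 at 92346638 to 92348889, minus strand, and shares exon sequence with Art3 on the other strand.

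Cxcl11, a second ligand of CXCR3, stood at 6.18, 6.33, 4.17 and 5.23 CPM with trastuzumab and at 9.55, 36.3, 9.14 and 69.6 CPM with both drugs. Its groups were separate with the same pair of high mice (2.51, SE 0.51, adjusted p = 0.0399). The annotation lists it, like Mx2, as a polymorphic pseudogene. Cxcl9, the other ligand, stood at 32.5 ± 15.9 and 124 ± 87.3 CPM, and its groups overlapped (1.92, adjusted p = 0.0719). Ccl17, a ligand of CCR4 made by dendritic cells and macrophages, stood at 2.06, 2.06, 1.46 and 1.57 CPM with trastuzumab and at 5.99, 6.70, 7.43 and 14.3 CPM with both drugs. All 4 combination tumours were high, not mice 11 and 22 alone, and the log2 change was 2.25 (SE 0.39, adjusted p = 0.0287). Ccl12, a monocyte attractant, rose by 1.05 (adjusted p = 0.0417).

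Other chemokines did not pass. Ccl5 stood at 59.5, 17.1, 12.7 and 13.8 CPM with trastuzumab and at 14.7, 58.0, 11.6 and 36.9 CPM with both drugs, a change of 0.22 (adjusted p = 0.944) between groups that overlapped fully. Its sign changed without mouse 11, to -0.28. Cxcl2, a neutrophil attractant, was lower in all 4 combination tumours (4.76 and 1.72 CPM on average) but missed the threshold at -1.49 (adjusted p = 0.108).

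Genes of effector cells rose in few cases. Among 13 Fc receptor and phagocyte oxidase genes, Fcgr4 and Fcgr1, receptors that bind the constant region of antibodies, rose. Fcgr4 went from 83.6 ± 10.7 to 163 ± 65.9 CPM (0.96, adjusted p = 0.0448) and Fcgr1 from 122 ± 14.1 to 201 ± 47.3 CPM (0.72, adjusted p = 0.0389). The list median was 0.10. Of 19 NK cell genes, 1 rose, the lectin-like receptor Klrb1b (1.36, adjusted p = 0.0421). The defining receptor Ncr1 stood at 7.99 ± 5.75 and 9.07 ± 4.45 CPM (0.16, adjusted p = 0.956), and Gzmb, a granule protease, at 2.34 ± 1.50 and 5.35 ± 4.76 CPM (1.15, adjusted p = 0.551). The summed NK list ran from 43.2 to 169 CPM with trastuzumab and from 77.3 to 185 CPM with both drugs, so the groups overlapped.

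Cd69, an early activation marker of leukocytes that lies outside the lists, was among the steadiest calls. It stood at 4.26, 6.65, 3.34 and 5.23 CPM with trastuzumab and at 14.6, 16.8, 11.8 and 25.7 CPM with both drugs. The groups were well apart, and the log2 change was 1.82 (SE 0.27, adjusted p = 0.0181). Its call was lost in 1 of the 16 single omissions, that of trastuzumab mouse 20 (adjusted p = 0.0716). Cd86, a costimulator of antigen-presenting cells, rose by 0.74 (adjusted p = 0.0427). Cd274 (PD-L1) stood at 12.9 ± 4.61 and 28.8 ± 16.7 CPM and did not pass (1.15, adjusted p = 0.158). Tnf stood at 0.41 (adjusted p = 0.743) and Il1rn at 0.62 (adjusted p = 0.434).

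Antigen presentation genes gave 1 call and small positive medians. In MHC class II presentation, 1 of 11 genes rose: H2-Ob, a modulator of peptide loading, at 5.91, 6.96, 6.89 and 8.89 CPM with trastuzumab and 17.0, 12.8, 12.95 and 13.2 CPM with both drugs. The groups did not overlap, and here mouse 2 was the highest (0.97, SE 0.15, adjusted p = 0.0235). The class II transactivator Ciita was higher in all 4 combination tumours but missed the threshold (0.61, adjusted p = 0.153). Of the 11 class II genes, 9 were positive (median 0.15). An unadjusted p under 0.05 was found for 4 of the 11, beside 1445 of all 15610 genes. None of the 22 MHC class I genes passed in edgeR, 20 of them positive with a median of 0.25 and 6 at an unadjusted p under 0.05. The class I transactivator Nlrc5 came closest (1.05, adjusted p = 0.0610), and the heavy chains H2-K1 and H2-D1 stood at 0.10 and 0.08.

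Macrophage and dendritic cell markers gave 1 call each. Of 25 macrophage genes 16 were positive (median 0.09), and Lyz1, a lysozyme, fell by 0.50 (adjusted p = 0.0399). Of 19 dendritic cell genes 12 were positive, with the costimulator Cd86 as the call. The summed macrophage list ran from 11206 to 12988 CPM with trastuzumab and from 11215 to 14373 CPM with both drugs.

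**Figure D3:**
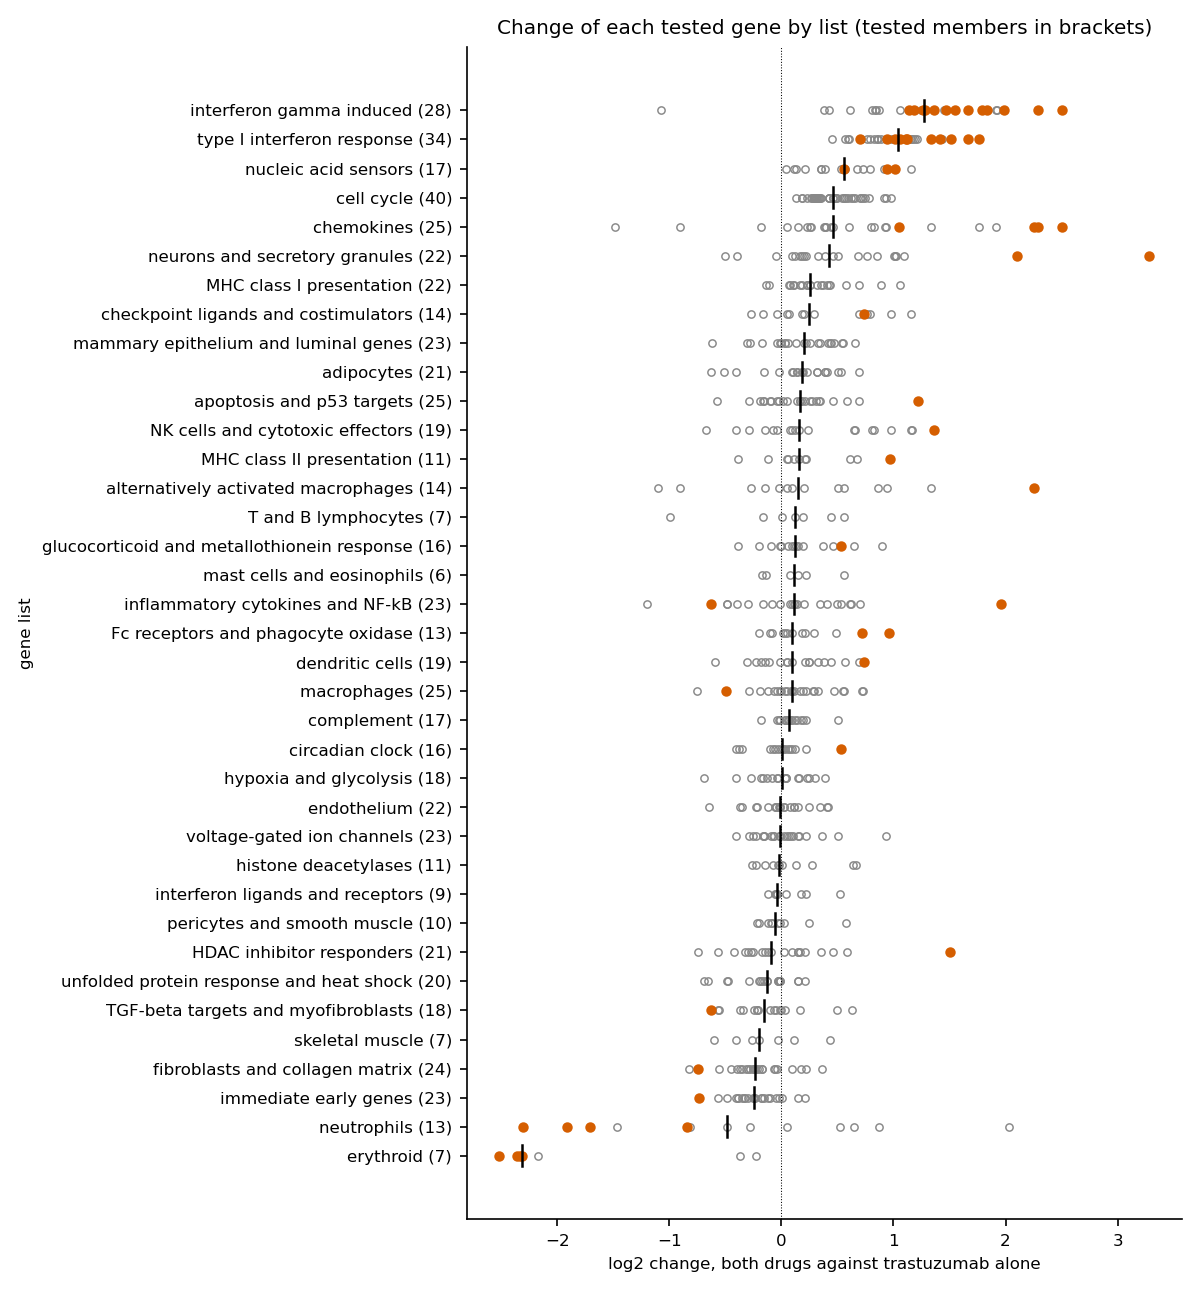
Log2 change of every tested gene, both drugs against trastuzumab alone, in the gene lists with at least 5 tested members. Filled orange points are called genes, open points are not, and black bars are list medians. The interferon lists lie furthest to the right (medians 1.27 and 1.04) and the erythroid list furthest to the left (median -2.31).

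Globin transcripts of red blood cells showed the largest decreases of the called genes. All 7 erythroid genes tested were negative, with a median of -2.31, and 4 fell. Hbb-b2, a beta globin, stood at 146, 75.7, 112 and 48.6 CPM with trastuzumab and at 13.3, 12.1, 21.1 and 20.3 CPM with both drugs. Every combination tumour was below every trastuzumab tumour, and the trastuzumab tumours varied widely among themselves. The log2 change was -2.52 (SE 0.38, adjusted p = 0.0181). Hbb-b1 (-2.33, adjusted p = 0.0235), Hba-a1 (-2.31, adjusted p = 0.0289) and Hba-a2 (-2.36, adjusted p = 0.0287) followed it. The copies within each globin pair are nearly identical, so their separate values are uncertain. Alas2, the first enzyme of heme synthesis in red cell precursors, was lower in all 4 combination tumours and just missed the threshold (-2.17, adjusted p = 0.0512).

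Neutrophil markers were split. Of 13 tested, 4 fell and none rose, with a median of -0.49. S100a8 and S100a9 encode the calprotectin subunits, abundant proteins of neutrophil cytosol. S100a8 stood at 17.0, 38.9, 31.5 and 22.8 CPM with trastuzumab and at 11.5, 5.39, 10.5 and 6.59 CPM with both drugs. The groups were apart, and mice 11 and 22 were the lowest (-1.71, SE 0.27, adjusted p = 0.0235). S100a9 fell by 1.92 (adjusted p = 0.0287), from 53.5 ± 19.7 to 14.4 ± 7.50 CPM.

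Retnlg, a secreted neutrophil protein, fell by 2.31 (adjusted p = 0.0427) and Cxcr2, by which neutrophils sense chemokines such as Cxcl2, by 0.84 (adjusted p = 0.0348). Retnlg was low and passed the filter on low counts only through the trastuzumab libraries. The markers Mmp8 (2.03, adjusted p = 0.0823) and Lcn2 (0.65, adjusted p = 0.232) were higher in all 4 combination tumours without passing. Ly6g, Mpo and Elane, which define the lineage and its precursors, were under the filter. The summed list ran from 441 to 527 CPM with trastuzumab and from 341 to 462 CPM with both drugs.

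Stromal and growth factor genes accounted for further decreases. Of 24 fibroblast and matrix genes 20 were negative (median -0.24) and 1 fell, Smoc2, a matrix-associated calcium-binding protein: 39.7, 60.9, 42.4 and 56.6 CPM with trastuzumab, 32.8, 28.0, 27.4 and 30.7 CPM with both drugs. The groups were apart and the combination tumours alike (-0.75, SE 0.15, adjusted p = 0.0344). Fmod, a collagen-binding proteoglycan, fell by 0.82 (adjusted p = 0.0421). Smad7, the inhibitor that TGF-beta signalling induces against itself, fell by 0.63 (adjusted p = 0.0427), the 1 call among 18 TGF-beta and myofibroblast genes. Of 23 immediate early genes, the first to respond to growth signals, 20 were negative (median -0.24) and 7 were lower in all 4 combination tumours. Of all genes, 2.40% were lower in that sense and 49.6% had a positive change. Cyr61, a matricellular protein of this list, fell by 0.74 (adjusted p = 0.0427). Fos (-0.34, adjusted p = 0.583) and Egr1 (-0.30, adjusted p = 0.248) did not pass.

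Cxcr4, the receptor for the stromal chemokine CXCL12, fell from 71.9 ± 10.6 to 43.5 ± 5.98 CPM (-0.73, SE 0.12, adjusted p = 0.0287). Its ligand Cxcl12 stood at 0.61 (adjusted p = 0.524). P2ry12, an ADP receptor of platelets and resident macrophages, fell by 0.75 (adjusted p = 0.0448), and Ptgs1, a cyclooxygenase, by 0.63 (adjusted p = 0.0427). Lpcat2, an enzyme of platelet-activating factor synthesis, fell by 0.75 (adjusted p = 0.0453).

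Of 38 neuronal and secretory granule genes listed, 22 passed the filter on low counts. Among these 22, 19 were positive (median 0.43) and 2 rose, Vgf and Fxyd7. The filter keeps a gene that is high enough in 1 group only, so sign counts and medians of lists with low genes may be tilted by it. Fxyd7, a regulator of the sodium pump, stood at 0.824, 0.791, 1.04 and 0.523 CPM with trastuzumab and 4.37, 1.46, 5.33 and 2.92 CPM with both drugs. It was low but separate between the groups (2.10, SE 0.37, adjusted p = 0.0287), and it passed the filter only through libraries given panobinostat. Outside the list, and named with their values known, Tmem59l (1.90), Dner, a ligand of Notch receptors (1.86), Cacng7, a calcium channel subunit (0.93), and Sez6l2 (0.96) rose. The list's defining axonal and glial members Nefl, Nefm, Gap43 and Gfap were all under the filter. The summed list ran from 403 to 514 CPM with trastuzumab and from 424 to 657 CPM with both drugs, and mice 11 and 22 lay within the trastuzumab range.

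Genes often reported to respond to histone deacetylase inhibitors gave 1 call among 21. Tesc, a calcium-binding regulator, rose from 1.59 ± 0.430 to 4.51 ± 0.282 CPM (1.51, SE 0.26, adjusted p = 0.0287). The cell cycle inhibitor Cdkn1a stood at 53.4, 45.9, 47.0 and 45.8 CPM with trastuzumab and at 49.7, 45.2, 44.8 and 72.6 CPM with both drugs (0.15, adjusted p = 0.836). Mouse 22 lay above the trastuzumab range, and the other combination tumours lay within or just below it. The linker histone H1f0 stood at -0.14 (adjusted p = 0.792). None of the 11 deacetylase genes passed in edgeR (2 at an unadjusted p under 0.05), and Hdac9 came closest (0.66, adjusted p = 0.0657).

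All 40 cell cycle genes had positive changes, beside 49.6% of all genes, with a median of 0.46. None passed in edgeR or limma voom, 23 had an unadjusted p under 0.05 in edgeR, and DESeq2 called 3. For 9 of the 40 the groups did not overlap, Mcm5 (0.54, adjusted p = 0.0618) and Tk1 (0.79, adjusted p = 0.0902) among them. Of all genes, 2.68% were higher in that sense. The summed list was 1571 CPM in mouse 2, 1142 in mouse 11, 1531 in mouse 16 and 1057 in mouse 22. In trastuzumab tumours it ran from 819 to 1158 CPM, so mice 2 and 16 stood above that range and mice 11 and 22 within it. Pkmyt1, a kinase that holds back entry into mitosis and lies outside the list, rose from 4.32 ± 1.06 to 9.39 ± 1.09 CPM (1.11, adjusted p = 0.0344). Among 16 glucocorticoid and metallothionein genes the circadian gene Per1 rose, from 26.3 ± 1.54 to 38.0 ± 1.86 CPM (0.53, SE 0.10, adjusted p = 0.0344). Its 4 combination libraries lay close together, from 35.7 to 40.3 CPM.

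Outside the lists stood 35 of the 73 higher genes and 12 of the 25 lower genes, and 11 of the 98 had predicted or clone names. Several of the higher ones are described elsewhere as interferon-responsive, but they were in no list and were picked out with their values known. They were Batf2, a transcription factor (1.58, adjusted p = 0.0427), Slfn9 (0.93), Pyhin1, a DNA-binding protein (1.32), Helz2 (0.87), Parp12 (0.80), Rnf213 (1.04) and Tor3a (0.88). Slfn9 stood at 13.7, 17.6, 16.5 and 13.6 CPM with trastuzumab and at 28.6, 29.9, 27.8 and 30.2 CPM with both drugs. Mice 2 and 16 were as high as mice 11 and 22 for this gene, unlike for Mx1 or Igtp. Others that rose were Serpina3f, a protease inhibitor (1.89), Susd4, an inhibitor of complement (1.98), Pcp4l1 (1.70), Mmp25, a membrane-bound protease of leukocytes (1.39), and Chi3l1, a chitinase-like protein (1.33, adjusted p = 0.0448). Tnfsf10 (TRAIL), a death receptor ligand and the 1 call among 25 apoptosis genes, rose by 1.22 (adjusted p = 0.0397). Lower genes outside the lists included Cpa1, a pancreatic-type carboxypeptidase (-1.71), Rapsn, which clusters receptors at the muscle synapse (-1.17), and Hist1h2al (-0.64), which the annotation lists as a processed pseudogene.

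The same drug was given without trastuzumab in 8 libraries that the comparison above does not use, apart from a shared estimate of spread. There, 30 of 15610 genes (0.192%) were called between panobinostat and vehicle, 22 higher (0.141%) and 8 lower (0.0512%). Of the 98 genes called with trastuzumab, 97 had the same sign without it, and for 86 the unadjusted p was also under 0.05. Over all 15610 genes 60.4% had the same sign, and 1120 had the same sign with such a p. The exception was Dnajc12, a heat shock co-chaperone, which rose by 0.95 with trastuzumab (adjusted p = 0.0448) and stood at -0.10 without it. Called in both were 20 genes, all with the same sign, or 20.4% of the 98 and 66.7% of the 30.

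**Figure D4:**
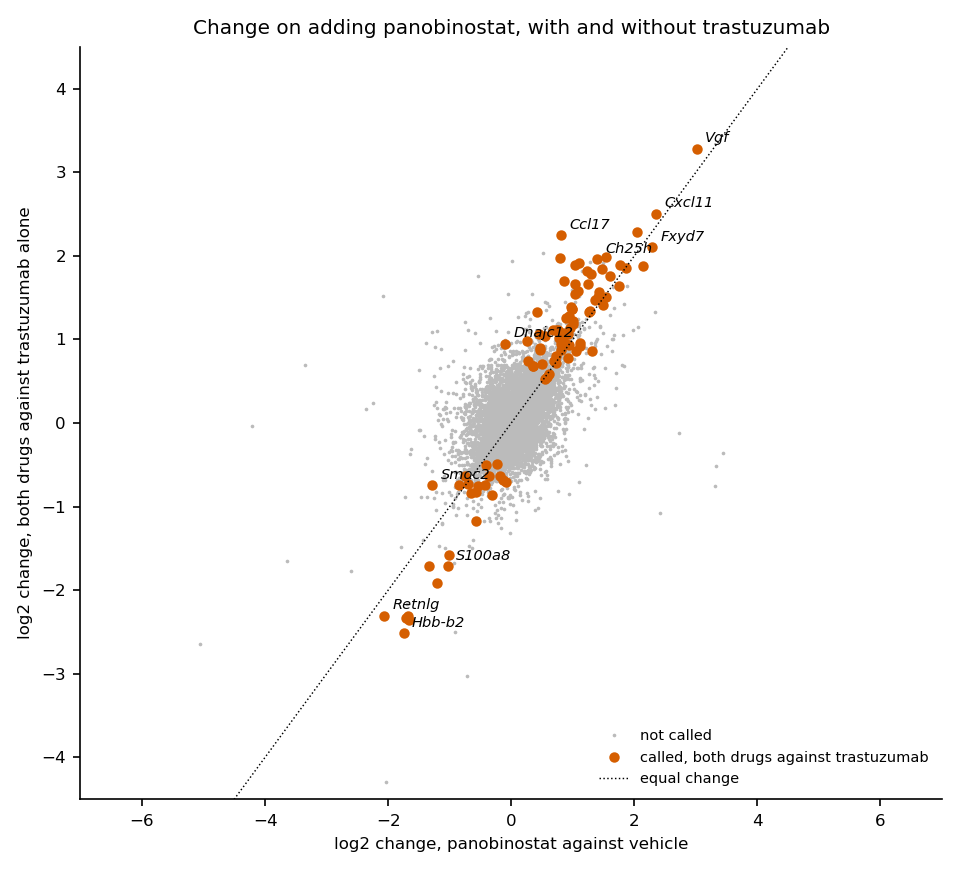
Log2 change of 15610 genes on adding panobinostat to trastuzumab (vertical) and to vehicle (horizontal). Orange points are the 98 genes called with trastuzumab, grey points the rest, and the dotted line marks equal change. All orange points but Dnajc12 have the same sign on both axes.

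List medians without trastuzumab were 0.88 for the type I list, 1.00 for the interferon gamma list, -1.68 for the erythroid list, -0.63 for neutrophils, 0.73 for neuronal genes and 0.39 for the cell cycle. The chemokine median was 0.02 there and 0.46 with trastuzumab. The test of the difference itself, the interaction of the drugs, called no gene by edgeR (0%), and none by DESeq2 or limma voom. An unadjusted edgeR p under 0.05 was found for 279 of 15610 genes, fewer than chance alone would give at that threshold. For Ch25h the difference between the changes was 0.57 (SE 0.36) and for Cd69 0.59 (SE 0.41), each in log2 units and smaller than 2 SE. Ccl17 was 2.25 with trastuzumab and 0.82 without (difference 1.43, SE 0.56). Smad7 was -0.63 and -0.18 (difference -0.45, SE 0.19), and Cd86 0.74 and 0.27 (difference 0.47, SE 0.22). Smoc2 was -0.75 with trastuzumab and -1.28 without (difference 0.54, SE 0.21). Of the called genes, Dnajc12 had the smallest unadjusted p for this difference (1.05, SE 0.30). For all of these genes the adjusted p of the interaction was 1.00 in edgeR.

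For 79 of the 98 genes the change was larger with trastuzumab than without, but these genes were chosen for their change with trastuzumab. Of the 30 genes called without trastuzumab, 6 had the larger change with it.

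**Figure D5:**
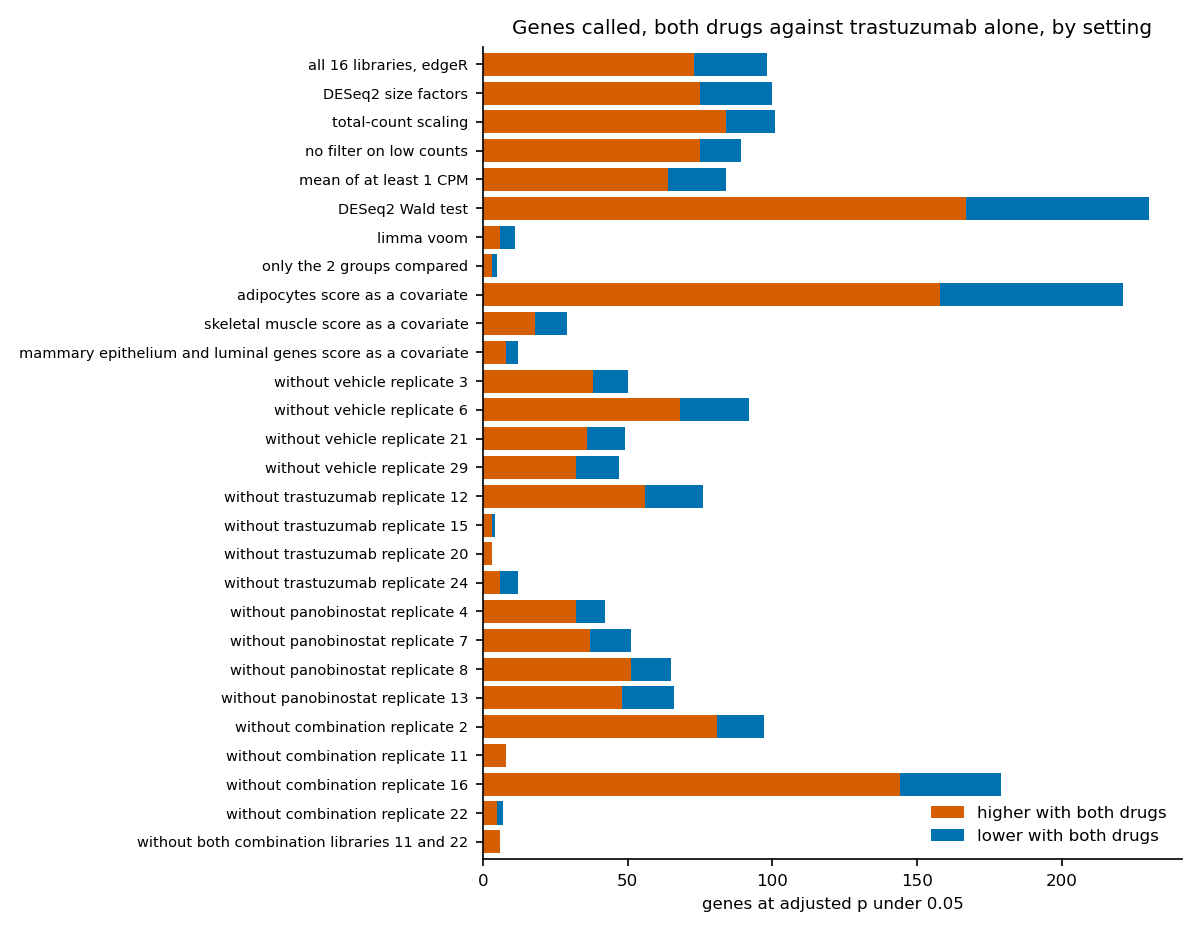
Number of genes called between both drugs and trastuzumab alone under each setting, as bars from 0, orange for higher and blue for lower with both drugs. Counts run from 3 without trastuzumab mouse 20 to 230 with the DESeq2 Wald test, beside 98 with all 16 libraries and edgeR.

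How many genes passed depended on single tumours, controls included. Without trastuzumab mouse 15, 20 or 24 there were 4, 3 or 12 calls, and without combination mouse 11 or 22 there were 8 or 7. Without combination mouse 16 there were 179. Adjusted p-values of the 98 lay between 0.000973 and 0.0498. In single omissions the largest adjusted p of a called gene ranged from 0.00767 for Vgf to 0.213 for Lpcat2. H2-Ob and Hbb-b2 kept their calls in 14 of 16 omissions, and Hbb-b1, Hba-a1, Hba-a2, S100a8, S100a9, Fxyd7, Tmem59l and the predicted gene Gm5150 in 12.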

How the data were processed

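RNA of 16 whole xenograft tumours was sequenced from TruSeq libraries, per the labels' protocols, and the deposited table holds the authors' raw count of reads per mouse gene in each library. The submitters' processing notes name CASAVA 1.8.2, TopHat2, HTSeq and the mm10 build, but not how human reads were kept apart. The 1327 gene rows without a number in all 16 columns were left out. All 1327 lacked a number in the 8 libraries given panobinostat, alone or with trastuzumab, and in no other library. Over the other 8 libraries, the counts of such a row summed to at most 368. Genes counted only without panobinostat may thus be missing from the decreases. Every row of the table had at least 1 count over those other 8 libraries, so genes counted only with panobinostat are absent too. Groups came from the sample descriptions, and count columns were matched to samples by title. No mouse or replicate number is shared between groups.

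Counts were fitted with edgeR 4.0.16 in R 4.3.3: TMM scaling, a filter on low counts by group (filterByExpr), and 1 quasi-likelihood fit over all 16 libraries with 1 mean per group. Contrasts were both drugs against trastuzumab, panobinostat against vehicle, and their difference (interaction). P-values are two-sided and adjusted by Benjamini-Hochberg over 15610 genes, with calls at under 0.05, and adjusted p-values in the text are from this fit unless another tool is named. Log2 changes are fitted values. Each SE is the change divided by the square root of F and is approximate. CPM are TMM-scaled, and means are given ± SD over 4 mice. The common biological coefficient of variation was 0.183.

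On simulated counts for 15483 genes in this design, the fit recovered 28.6% of 1.5-fold, 63.8% of 2-fold, 85.7% of 3-fold and 98.0% of 4-fold changes, and 2.88% of its calls were false. Each gene was drawn independently, so differences that many genes of a tumour share were not simulated. These rates may therefore not hold for the real counts. Named genes were the 15 largest called increases and decreases with groups apart and the higher group averaging 1 CPM or more, called list members, calls kept without each library in turn, a set of always-named genes, the 5 smallest interaction p-values and other called genes named as such. The 39 lists (761 genes, 645 tested), like the comparison and the always-named genes, were chosen with earlier results of these data known.

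Alternatives were DESeq2 1.42.0 (size factors, Wald test), limma voom 3.58.1, total-count scaling, other filters, only the groups compared, a tissue score as a covariate, and each library left out. Promoter windows came from RefSeq and positions from GENCODE annotation of the same assembly. Tables were handled in Python 3.11.15 with pandas 2.3.3. Some genes are not reported here.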

Additional observations from a re-analysis of the deposited data

Results flagged for a closer look

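In 8 of 172 groups of 4 libraries checked, 1 library stood apart from the other members of its group by Dixon's ratio at its 95% critical value. That is 4.65%, and chance gives about 5%. Among the genes that rose, Susd4 stood at 1.39 CPM in combination mouse 22, next to 3.07 in the nearest of its group. H2-Ob stood at 17.0 CPM in combination mouse 2, next to 13.2. In trastuzumab mouse 24, Dner stood at 3.14 CPM, next to 0.950, and Igtp at 25.4 CPM, next to 35.3. Tesc stood at 0.950 CPM in trastuzumab mouse 15, next to 1.74. Trastuzumab mouse 12 was high for 3 genes that did not pass: Ccl5 at 59.5 CPM, next to 17.1, Cdkn1a at 53.4 CPM, next to 47.0, and H1f0 at 123.9 CPM, next to 103.5. That mouse also had the highest fat cell sum of its group, 28531 CPM, and the part of this in the 3 values was not tested.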

How the results depend on the processing

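Of 98 calls on adding panobinostat to trastuzumab, the DESeq2 Wald test gave 230, limma voom 11 and a fit of only the 2 groups compared 5. A covariate for the fat cell score gave 221, for skeletal muscle 29 and for the mammary epithelial score 12. Leaving out 1 library at a time gave 3 to 179, and leaving out combination mice 11 and 22 together, chosen after seeing the data, gave 6. Scaling by DESeq2 size factors (100) or total counts (101), no filter (89) and a minimum mean of 1 CPM (84) stayed within 1.5 times. Of the 98, 96 were also called by DESeq2. Of 30 calls without trastuzumab, total-count scaling gave 46, DESeq2 154, voom 3, 2 groups only 58 and single omissions 3 to 72. No interaction was called in any fit where it was tested.

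The direction of a named gene changed in 13 combinations of gene and setting, over 7 genes that were not called. Without combination mice 11 and 22 the changes were Ccl5 -0.98, Ncr1 -0.45, Gzmb -0.46, Tnf -0.18, Irf7 -0.35, Cdkn1a -0.020 and Erbb2 0.097. Over single omissions the lowest and highest changes were -0.28 and 1.084 for Ccl5, -0.19 and 0.75 for Ncr1, -0.047 and 0.23 for Cdkn1a, and -0.38 and 0.040 for Erbb2. The cause was not tested. No paired analysis was possible because no replicate number is shared between groups. At this depth, genes near 1 CPM rest on a few counts per library.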

Other observations

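Stress and vessel genes showed little movement on adding panobinostat to trastuzumab, beside 1445 of all 15610 genes at an unadjusted p under 0.05. Of 20 genes of the unfolded protein and heat shock responses, which handle misfolded proteins, 3 were positive and none passed in edgeR (median -0.13, 3 at an unadjusted p under 0.05). None of 22 endothelial genes passed, 10 of them positive (median -0.02, 3 at an unadjusted p under 0.05), and none of 10 pericyte and smooth muscle genes (median -0.05, 1 so). Of 17 complement genes, 13 were positive and none passed (median 0.07, 0 at an unadjusted p under 0.05). Hypoxia and glycolysis genes stood at a median of 0.00 over 18 genes, with no call and 2 at an unadjusted p under 0.05.

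Mouse luminal and mammary epithelial genes gave no call among 23 (17 positive, median 0.20, 3 at an unadjusted p under 0.05). Krt8, a luminal keratin, stood at -0.31 (adjusted p = 0.568). Among 23 voltage-gated ion channel genes, the median was -0.02 with no call (1 at an unadjusted p under 0.05), while the neuronal and secretory granule list stood at 0.43.

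The smallest unadjusted interaction p-values belonged to 5 genes, each with an adjusted p of 1.00 in edgeR. The antimicrobial lectin Reg3g stood at 0.95 on adding panobinostat with trastuzumab and at -1.39 without it (difference 2.35, SE 0.67). Crabp1, a retinoic acid carrier, stood at 1.26 and -0.35 (difference 1.61, SE 0.42), AL591207.1 at 1.21 and -0.75, the transcriptional repressor Hic2 at -0.40 and 0.63, and Dnajc12 at 0.95 and -0.10. Dmbt1, a secreted scavenger receptor, had the largest change among genes that were not called, -4.29 on the log2 scale (adjusted p = 0.108).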
